A study of Mus musculus with 20 samples.

Results

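Transcript levels of 9 genes that encode proteins the liver secretes into plasma were examined in subcutaneous mouse hepatoma tumors. The 9 were the carriers Alb, Trf, Ttr and Serpina6, the serine protease inhibitors (serpins) Serpinc1, Serpind1 and Serpinf2, the hyaluronan-binding Itih2 and the mineral-binding Ahsg. They were chosen by name because several were lower in tumors given GSK343 with a control antibody, so the values of that comparison describe the choice and are given without a test. All 9 were found among the 14633 genes of the deposited table, and all 9 were among the 14385 genes tested, meaning that 5 or more libraries reached 1 FPKM. Ahsg and Serpinc1 fell short of 1 FPKM in some libraries, and the other 7 reached it in every one. FPKM scales sequenced fragments by transcript length and library size, so levels of different genes can be compared per length.

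HEPA1-6, a mouse hepatoma line, was injected under the skin of C57/BL6 mice and grown for 4 weeks. All tumors received an antibody: a control antibody (n = 4 libraries analysed) or an antibody against the chemokine CXCL10 (n = 5), each also with GSK343 added (n = 5 and n = 5). GSK343 inhibits EZH2, the enzyme that methylates lysine 27 of histone H3. The labels name 20 samples with 5 replicates a group, where the design text states 3. The control antibody library numbered 4 has no column in the table of values and could not be analysed. Neither doses nor the age of the mice are stated. Whether each replicate is a tumor of its own animal is not stated either, and p-values therefore speak only of the spread among these libraries, which may be technical. The numbers after the letter S in the labels run from 1 to 10 across both control antibody groups and again across both anti-CXCL10 groups. What they mark is not given. In each series numbers 1 to 5 are the libraries without GSK343, and the higher numbers are those with it. Whatever the number marks cannot be told apart from GSK343, and whatever the repeat of the series marks cannot be told apart from the antibody.

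Hepatocytes make most of the protein in blood plasma. Albumin sets the osmotic pressure of plasma and carries fatty acids and drugs, transferrin delivers iron to cells through the transferrin receptor, transthyretin carries thyroid hormone and the retinol-binding protein, and corticosteroid-binding globulin (Serpina6) is a serpin that lost protease inhibition and carries glucocorticoids. Antithrombin (Serpinc1) and heparin cofactor II (Serpind1) inhibit thrombin, and alpha-2-antiplasmin (Serpinf2) inhibits plasmin. Transcription of such genes depends on the liver-enriched factors HNF1, HNF4, C/EBP and FOXA.

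Markers of hepatoma cells were present in the tumors. The fetal liver carrier Afp had 2282 ± 291 FPKM with control antibody (SD, n = 4) and 1736 ± 302 with GSK343 added (limma adjusted p = 0.185). It had 2623 ± 478 FPKM with anti-CXCL10 and 2453 ± 591 with anti-CXCL10 plus GSK343. The simple epithelial keratins Krt8 and Krt18 together had 1425 ± 165 FPKM with control antibody. Their means were 1411 FPKM with GSK343 added, 1379.6 with anti-CXCL10 and 1457 with anti-CXCL10 plus GSK343. In the control group Alb ranked 14th and Trf 23rd by mean level among all genes, whereas Serpinc1 ranked 14225th. Together the 9 genes took 1.01% ± 0.0907 of the summed FPKM with control antibody, 0.656% ± 0.0698 with GSK343 added (n = 5), 1.15% ± 0.211 with anti-CXCL10 and 1.03% ± 0.269 with anti-CXCL10 plus GSK343. Alb and Trf weigh most in this share, with control means of 3004 and 2289 FPKM, against 325 for Itih2, the next highest. FPKM sums were between 533606 and 629679 per library, and sequencing depth is unknown.

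With control antibody, 8 of the 9 genes had a lower mean level when GSK343 was added, and for 5 of them (Alb, Trf, Itih2, Serpina6 and Serpind1) every treated library was below every control library. Over all genes tested, 3.54% were wholly below in that comparison, 4.05% wholly above, and 5.47% passed limma's test (1.11% as lower); the genes were chosen on this contrast, so nothing is read from these counts. The median difference of the 9 was -1.40 on the log2(FPKM + 1) scale, against -0.03 over all genes. With anti-CXCL10, a contrast whose libraries played no part in the choice, 0 of the 9 passed limma's test for GSK343, and 0% of all genes passed. None of the 9 was wholly below or wholly above there, where 0.125% and 0.271% of all genes were. On the log2 scale 6 of the 9 had a difference below 0, against 46.8% of all genes. The smallest adjusted p over all genes was 0.531, and 418 genes had an unadjusted p under 0.05, where 719.25 would be met by chance. The median difference of the 9 was -0.13 there. In bulk tumors, fewer cells of a type and less RNA per cell cannot be told apart.

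**Figure D1:**
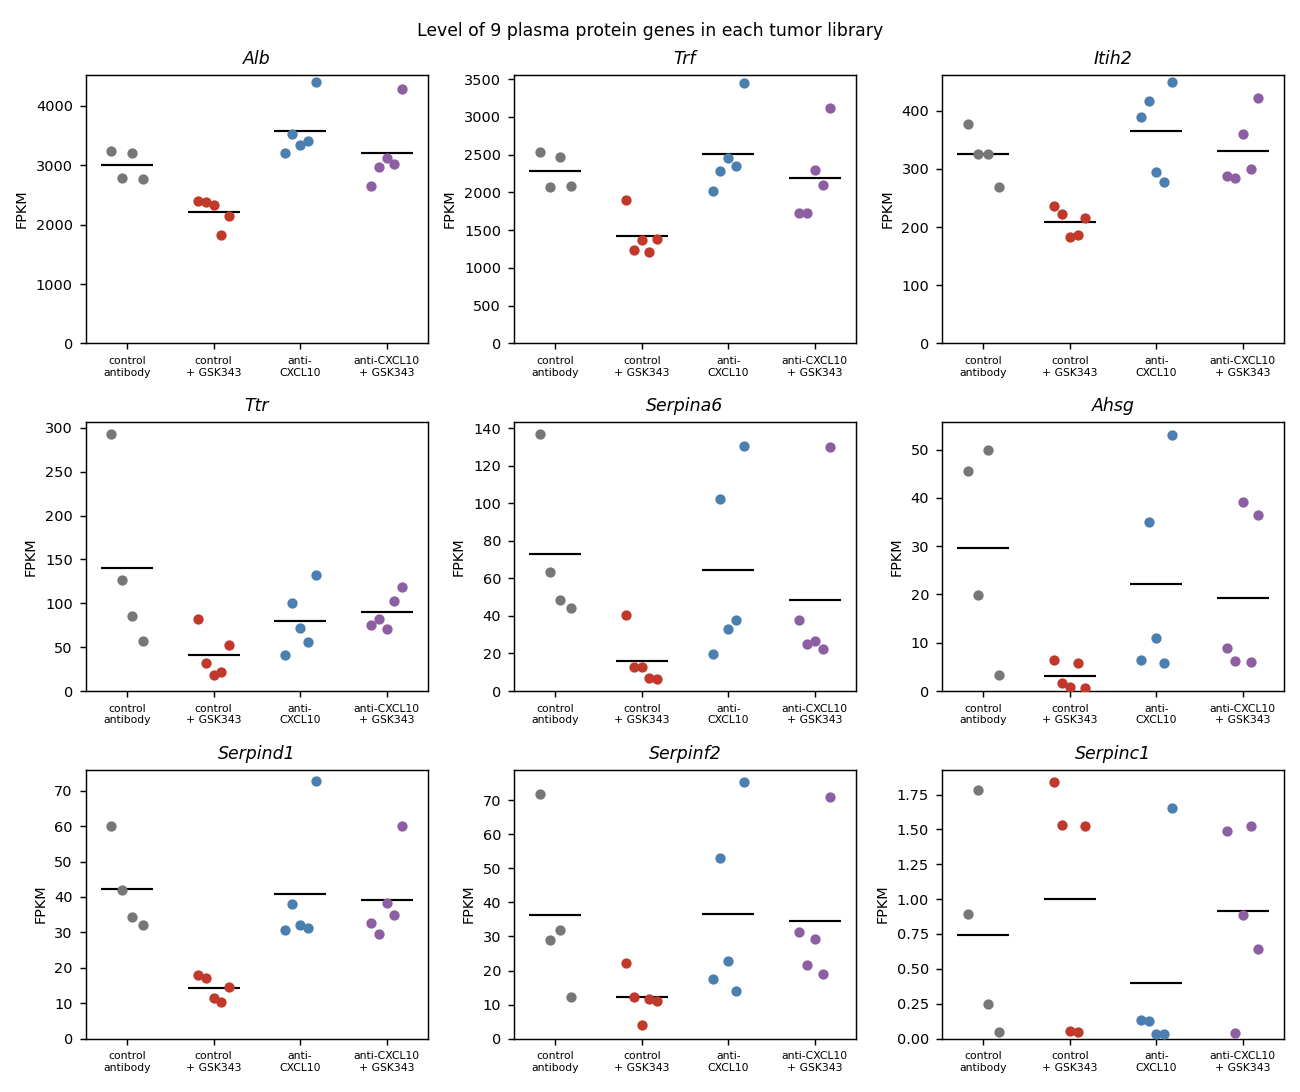
FPKM (linear axis from 0) of each gene in each library, by treatment group; points are libraries in replicate order and lines are group means. With GSK343 and control antibody, Alb, Trf, Itih2, Serpina6 and Serpind1 lie wholly below the control antibody libraries, while the groups with anti-CXCL10 overlap for all 9.

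Among the carriers, Alb (ENSMUSG00000029368, chromosome 5, 90460889 to 90476603, build GRCm38) had 3243, 2790.3, 3209 and 2775 FPKM in control replicates 1, 2, 3 and 5, and 2401, 2386, 2326, 1819 and 2149.6 FPKM in replicates 1 to 5 with GSK343 added. The highest treated library stayed below the lowest control, and the means were 3004 ± 256 and 2216 ± 243 FPKM, a difference of -0.44 ± 0.13 (SE, log2 scale). With anti-CXCL10 the 5 libraries had 3203, 3536, 3342, 3412 and 4401 FPKM, and with anti-CXCL10 plus GSK343 2648, 2980.5, 3128, 3024 and 4279 FPKM. Here 4 of the 5 treated libraries lay below the lowest untreated one and replicate 5 lay above 4 of the 5. The difference of -0.17 ± 0.12 had a 95% interval of -0.42 to 0.09 and did not pass (limma adjusted p = 0.9997, unadjusted p = 0.190).

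Trf (ENSMUSG00000032554, minus strand of chromosome 9, 103204001 to 103230444) had 2529, 2073, 2469 and 2084 FPKM in the control antibody tumors and 1897, 1233, 1363, 1205 and 1386 where GSK343 was given as well. Treated replicate 1 came nearest to the controls, and the other 4 lay well below them. Means were 2289 ± 244 and 1417 ± 280 FPKM, a difference of -0.71 ± 0.18 on the log2 scale. With anti-CXCL10 the levels were 2022, 2280.5, 2461, 2349 and 3447 FPKM, and with GSK343 added to it 1725, 1728, 2294, 2103 and 3111. These groups overlapped, and the difference of -0.21 ± 0.17 (95% interval -0.56 to 0.15) did not pass limma's test (adjusted p = 0.9997). Trf overlaps the listed gene Gm20425, so fragments could be shared; Gm20425 had 9.36 ± 2.39 FPKM in the controls and 4.76 ± 1.51 in the treated libraries.

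Ttr (ENSMUSG00000061808) varied more between libraries of one group. Its levels were 293, 127, 85.5 and 57.2 FPKM in the controls, against 81.7, 32.4, 18.7, 22.2 and 52.9 FPKM in the treated libraries. The groups overlapped in treated replicate 1, which was above control replicate 5, and the means of 141 ± 105 and 41.6 ± 26.1 FPKM differed by -1.67 ± 0.46 on the log2 scale. With anti-CXCL10 the levels were 40.6, 99.8, 71.7, 55.9 and 132 FPKM without and 75.1, 81.6, 71.2, 103 and 119 with GSK343. The mean was higher with the drug here, by 0.26 ± 0.43 (95% interval -0.65 to 1.17), and did not pass (limma adjusted p = 0.9997).

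Serpina6 (ENSMUSG00000060807, minus strand of chromosome 12, 103646630 to 103657212) showed the second largest difference of the 9 in the contrast used for the choice. Levels were 137, 63.3, 48.7 and 44.2 FPKM under control antibody alone and 40.6, 12.6, 13.03, 7.08 and 6.40 under control antibody plus GSK343. The groups were separated narrowly, by treated replicate 1 and control replicate 5, and the means of 73.3 ± 43.2 and 15.9 ± 14.1 FPKM differed by -2.29 ± 0.62 on the log2 scale. With anti-CXCL10 the levels were 19.8, 103, 32.9, 37.8 and 131 FPKM without and 37.8, 25.0, 26.4, 22.6 and 130.2 with GSK343. Replicate 5 stood about level in both of these groups, far above the other treated libraries, and the difference of -0.42 ± 0.59 (95% interval -1.66 to 0.82) did not pass (limma adjusted p = 0.9997).

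Among the inhibitors, Serpind1 (ENSMUSG00000022766, plus strand of chromosome 16, 17331371 to 17343575) was wholly lower in the treated group. Levels were 60.0, 42.1, 34.4 and 32.2 FPKM in the control antibody tumors and 17.8, 17.1, 11.5, 10.4 and 14.6 where GSK343 was given as well. The means of 42.2 ± 12.6 and 14.3 ± 3.33 FPKM are a ratio of 0.339, a difference of -1.48 ± 0.26 on the log2 scale. With anti-CXCL10 the levels were 30.5, 37.9, 32.0, 31.3 and 72.9 FPKM without and 32.6, 29.5, 38.3, 34.8 and 60.0 with GSK343. Those means, 40.9 ± 18.1 and 39.1 ± 12.2 FPKM, differed by -0.03 ± 0.24 on the log2 scale (95% interval -0.54 to 0.49, limma adjusted p = 0.9997). Serpind1 overlaps Pi4ka, a lipid kinase gene, so fragments could be shared. Pi4ka itself had 26.9 ± 3.26 FPKM in the controls and 27.5 ± 1.3 in the treated libraries.

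Serpinf2 (ENSMUSG00000038224, minus strand of chromosome 11, 75431732 to 75439591) had 72.0, 29.1, 31.8 and 12.3 FPKM in the controls, against 22.1, 12.2, 4.07, 11.7 and 10.9 FPKM in the treated libraries. Treated replicate 1 lay within the control range, and the other 4 lay below the lowest control. With anti-CXCL10 the levels were 17.5, 53.0, 22.9, 14.1 and 75.5 FPKM without and 31.2, 21.6, 29.4, 18.9 and 71.1 with GSK343. The difference was -1.40 ± 0.55 with control antibody and 0.04 ± 0.52 (95% interval -1.06 to 1.14, limma adjusted p = 0.9997) with anti-CXCL10, both on the log2 scale. Serpinc1 (ENSMUSG00000026715, plus strand of chromosome 1, 160978585 to 161005863) was the lowest of the 9, with 0.895, 1.79, 0.245 and 0.0446 FPKM under control antibody alone and 1.84, 1.53, 0.0574, 0.0454 and 1.52 under control antibody plus GSK343. High and low libraries occurred within the same group, and with anti-CXCL10 they were 0.131, 0.125, 0.0358, 0.0314 and 1.66 FPKM without and 1.49, 0.0430, 0.883, 1.52 and 0.641 with GSK343. The antithrombin gene was the exception to the lower levels with control antibody (0.17 ± 0.39), and with anti-CXCL10 it differed by 0.50 ± 0.37 (95% interval -0.27 to 1.27, limma adjusted p = 0.9997).

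Itih2, a heavy chain that is linked to hyaluronan and to the inhibitor bikunin (ENSMUSG00000037254, minus strand of chromosome 2, 10094593 to 10131396), had 378, 325, 326 and 269.8 FPKM in the control antibody tumors and 236, 222, 183, 186 and 215 where GSK343 was given as well. The groups did not overlap, and the means of 325 ± 44.1 and 208 ± 23.2 FPKM differed by -0.63 ± 0.15 on the log2 scale. With anti-CXCL10 the levels were 389, 417, 295, 277 and 449 FPKM without and 287, 284, 359.9, 300.0 and 422 with GSK343, and the difference of -0.14 ± 0.14 (95% interval -0.44 to 0.17) did not pass (limma adjusted p = 0.9997). Ahsg, fetuin-A, which keeps calcium phosphate in solution (ENSMUSG00000022868, chromosome 16, 22892042 to 22899438), had 45.5, 19.9, 49.9 and 3.40 FPKM in the controls, against 6.33, 1.74, 0.856, 5.77 and 0.580 FPKM in the treated libraries. The lowest control, replicate 5, lay within the treated range, although the ratio of the means was 0.103 and the log2 difference of -2.71 ± 0.83 was the largest of the 9. With anti-CXCL10 Ahsg had 6.50, 34.9, 11.01, 5.81 and 53.1 FPKM without and 9.02, 6.22, 39.1, 5.92 and 36.4 with GSK343. High and low libraries occurred in both of these groups. The difference of -0.13 ± 0.78 had a 95% interval of -1.78 to 1.51 (limma adjusted p = 0.9997). Large differences in either direction are within that interval.

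**Figure D2:**
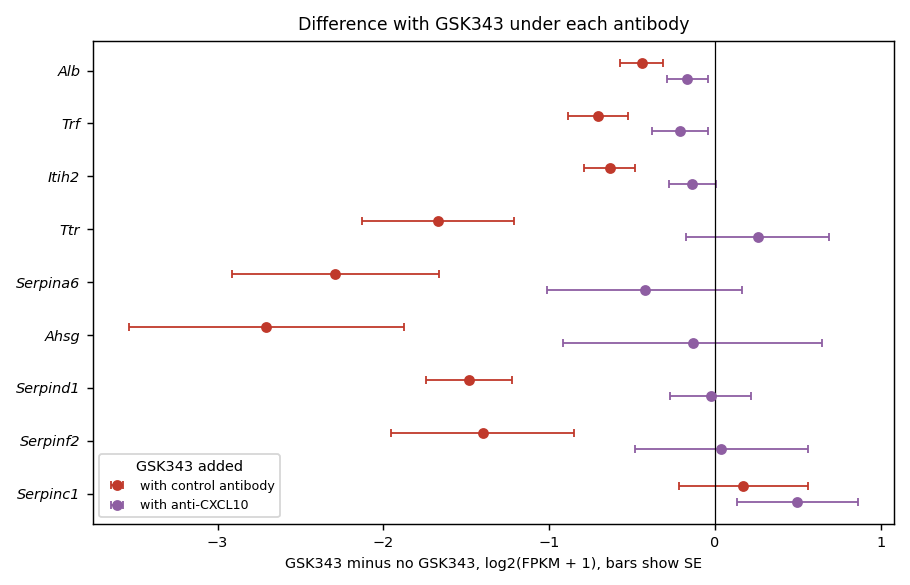
Difference with GSK343 on the log2(FPKM + 1) scale (horizontal axis, bars are SE from limma) for each gene, with control antibody (red) and with anti-CXCL10 (purple). With control antibody 8 of 9 genes lie below 0, from -0.44 to -2.71, and with anti-CXCL10 the 9 lie between -0.42 and 0.50.

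Whether GSK343 acted differently under each antibody was not tested for the 9 genes, since they were picked on 1 of those effects. The comparisons between antibodies share libraries with the choice, and their values are likewise descriptions. Without GSK343, anti-CXCL10 tumors differed from control antibody tumors by -0.65 ± 0.46 for Ttr at the low end and by 0.25 ± 0.13 for Alb at the high end, with a median of -0.08 over the 9 genes and no gene wholly above or below. All genes tested gave 1.61% wholly below and 0.925% wholly above there, and 0.0139% passed limma's test (0.0139% lower, 0% higher). With GSK343 present, 8 of the 9 were higher in anti-CXCL10 tumors, with a median of 1.28 over the 9. Serpinc1 was level at 0.00 ± 0.37, and Ahsg showed the largest difference at 2.18 ± 0.78. Alb (0.52 ± 0.12), Itih2 (0.65 ± 0.14) and Serpind1 (1.37 ± 0.24) were wholly above the control antibody plus GSK343 group, as were 4.12% of all genes. In that comparison 10.1% of all genes passed, 3.48% as higher and 6.64% as lower, and 4.65% were wholly below.

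The promoters of the genes were set beside these values, because the liver-enriched factors bind close to the start site of many plasma protein genes. RefSeq promoters (GRCm38.p6, 250 bases before to 50 bases after the start, 300 bases in all) were at hand for 6 of the 9 genes: Alb, Itih2, Ahsg, Serpinc1, Serpind1 and Serpinf2. The 3 shown are those of genes whose groups with control antibody did not overlap; capitals mark matches, on either strand, to the words searched. The RefSeq start of Itih2 lies inside the gene as the deposited table bounds it.
Alb promoter (chr5:90460620-90460919, plus strand): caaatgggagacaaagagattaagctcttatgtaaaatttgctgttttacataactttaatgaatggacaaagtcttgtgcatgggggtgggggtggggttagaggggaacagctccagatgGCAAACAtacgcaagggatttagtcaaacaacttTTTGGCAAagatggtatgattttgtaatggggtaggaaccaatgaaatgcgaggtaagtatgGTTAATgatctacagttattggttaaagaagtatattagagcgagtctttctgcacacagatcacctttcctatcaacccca
Itih2 promoter (chr2:10130634-10130933, minus strand): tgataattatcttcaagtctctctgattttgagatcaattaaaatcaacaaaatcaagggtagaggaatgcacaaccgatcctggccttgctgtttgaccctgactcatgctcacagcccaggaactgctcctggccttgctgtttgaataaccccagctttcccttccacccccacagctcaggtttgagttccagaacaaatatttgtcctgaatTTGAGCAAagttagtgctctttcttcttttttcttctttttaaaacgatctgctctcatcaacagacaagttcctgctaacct
Serpind1 promoter (chr16:17331121-17331420, plus strand): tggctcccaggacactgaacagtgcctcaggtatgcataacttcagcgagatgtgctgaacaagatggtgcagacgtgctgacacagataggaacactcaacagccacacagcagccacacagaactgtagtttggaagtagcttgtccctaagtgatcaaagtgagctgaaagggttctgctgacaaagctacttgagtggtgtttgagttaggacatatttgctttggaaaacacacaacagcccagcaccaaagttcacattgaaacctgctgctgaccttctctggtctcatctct

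Words typical of 4 factor families were searched on both strands, and no matches overlapped in these promoters. The C/EBP word TTNNGCAA was present in 4 of the 6 promoters (Alb, Itih2, Ahsg and Serpinc1) and in 10.8% of all 32851 promoters of the same length. The HNF1 word GTTAAT was present in the Alb promoter only, and in 7.10% of all promoters. Of the forkhead words bound by FOXA factors, TGTTTGC was present in Alb and Ahsg (5.07% of all), TATTTAC in Serpinf2 (3.04% of all) and TGTTTAC in 0 of the 6 (3.65% of all). The HNF4 word CAAAGTCCA was in 0 of the 6 and in 0.475% of all promoters. Serpind1 held none of the words in this window. A match describes the letters and is not evidence of binding.

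Within the groups, the 9 genes varied together from library to library. With group means removed, Pearson's r over the 19 libraries was between 0.51 and 0.85 for the 28 pairs without Serpinc1 (median 0.71), and between 0.28 and 0.67 for the 8 pairs with it. The closest pair was Alb and Trf (0.85), followed by Serpinf2 and Ahsg (0.84). These are descriptions, since the values of 1 library share its depth and its scaling. Single libraries carried much of the spread: replicate 1 with control antibody plus GSK343 was the highest of its group in 9 of 9 genes, and replicate 5 with anti-CXCL10 likewise in 9 of 9. Replicate 5 with anti-CXCL10 plus GSK343 and control replicate 1 were each highest in 7 of 9, and control replicate 5 was lowest in 8 of 9. The coefficient of variation with control antibody was 8.53% for Alb, 10.7% for Trf, 13.6% for Itih2 and 29.9% for Serpind1, and from 58.9% for Serpina6 to 106% for Serpinc1 for the other 5.

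**Figure D3:**
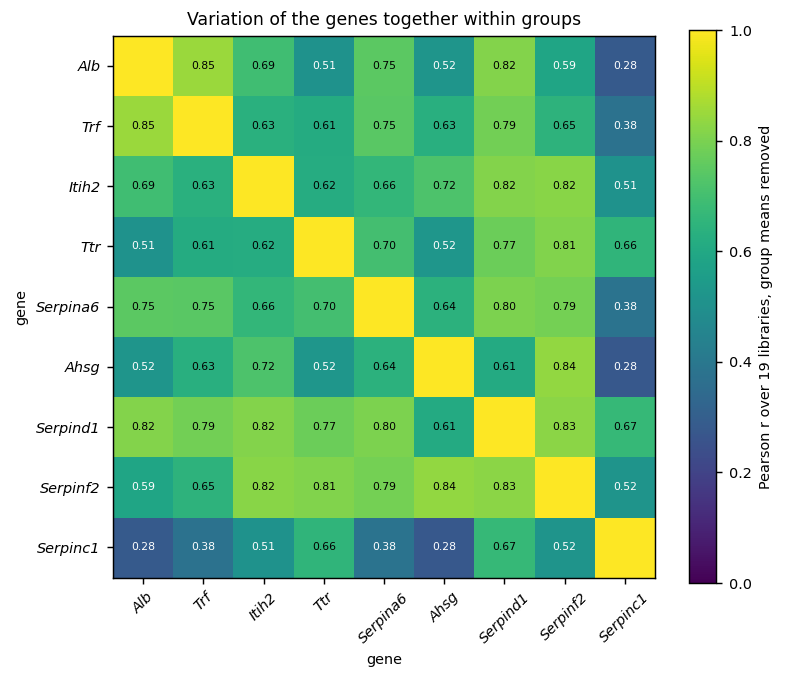
Pearson's r between each pair of genes over 19 libraries, on log2(FPKM + 1) with group means removed (both axes list the genes, color gives r from 0 to 1). The Serpinc1 row is the lowest, from 0.28 to 0.67, and the other pairs lie between 0.51 and 0.85.

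Markers of other cells differed between the same groups. With GSK343 and control antibody, 7 of 8 pan-leukocyte markers, 10 of 12 T cell markers and 9 of 11 macrophage markers rose by limma's test, against 4.36% of all genes. Without the 3 treated libraries highest in muscle markers these counts were 1 of 8, 0 of 11 and 0 of 11, and with a muscle score as covariate 1, 0 and 0; the median differences of the lists were then 0.78, 0.74 and 0.93, and 0.86, 0.83 and 0.86. In a fit of the compared groups alone, 4 of 8, 4 of 12 and 1 of 11 passed, with the medians unchanged at 0.91, 1.08 and 0.99. Without control replicate 1, 4 pan-leukocyte and 5 T cell markers passed. The summed leukocyte markers were between 224 and 354 FPKM in the control libraries and between 467 and 719 in the treated ones. T cell markers summed to between 46.0 and 79.3 FPKM in the controls and between 91.4 and 258 in the treated libraries, and macrophage markers to between 515 and 1029.9 and between 1249 and 2178. Of 14 skeletal muscle markers tested, 1 rose, the calcium buffer Pvalb (0 without those 3 libraries and 0 with the covariate, but 8 without treated replicate 1), and 14 of 14 were above 0. Their summed level was between 29.0 and 113 FPKM in the controls and between 58.3 and 2493 in the treated libraries, with Ckm, Myh4, Myh2, Actn3, Tnnc2 and Pvalb listed at 0 in at least 1 of the 19 libraries. With anti-CXCL10 none of these lists had a gene past the threshold. The part of leukocytes and muscle in the lower levels of the 9 genes was not tested. With GSK343 and control antibody, 0 of 8 keratin and hepatoma markers passed limma's test. At an unadjusted p under 0.05, 3 were lower and 1 higher, where 8.2% and 10.7% of all genes were. On the log2 scale the lower ones were Afp (-0.40 ± 0.17), Epcam (-0.40 ± 0.12) and Gpc3 (-0.84 ± 0.35). The higher one was H19 (0.85 ± 0.31). Krt8 plus Krt18, keratins of simple epithelia and hepatocytes from that list, had 1425 ± 165 FPKM in the controls and 1411 ± 150 in the treated libraries. Per 100 FPKM of these keratins, Alb had 193 to 231 FPKM in the control libraries and 142 to 184 in the treated ones, Trf 148 to 180 and 81.8 to 124, Itih2 19.6 to 26.9 and 14.2 to 15.4, Serpind1 2.06 to 4.27 and 0.839 to 1.16, and Serpina6 2.93 to 9.74 and 0.422 to 2.64. On the same scale the ranges overlapped for Ttr (4.35 to 20.8 and 1.48 to 5.32), Serpinf2 (0.935 to 5.12 and 0.322 to 1.44), Ahsg (0.259 to 3.24 and 0.0383 to 0.468) and Serpinc1. These ratios describe the contrast used for the choice, with keratin sums close to each other, and nothing is read from them.

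Without the 3 treated libraries highest in muscle markers, which leaves 2 with GSK343 and control antibody, the differences were -0.32 ± 0.17 for Alb, -0.58 ± 0.24 for Trf, -0.49 ± 0.20 for Itih2, -1.18 ± 0.33 for Serpind1 and -1.49 ± 0.81 for Serpina6. With a muscle marker score as a covariate they were -0.27 ± 0.14, -0.54 ± 0.21, -0.38 ± 0.15, -1.07 ± 0.26 and -1.17 ± 0.57. In the same covariate fit Ttr had -0.99 ± 0.47 and Ahsg -1.87 ± 0.95. Serpinf2, at -1.40 ± 0.55 in the reported fit, had -0.49 ± 0.54 with the covariate and -0.84 ± 0.71 without the 3 libraries. The sign of Serpinc1 rested on 1 library, since it was -0.04 without control replicate 5, and it was 0.73 without the 3 libraries. The 3 libraries were left out after the data were seen. All these refits describe the contrast used for the choice, and nothing is read from them.

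Other plasma proteins that the liver makes, none of them among the 9, were counted from lists of carriers, protease inhibitors, coagulation factors and complement proteins. Which cells of these bulk tumors expressed them was not tested. Of 79 genes listed, 54 were in the table and 53 were tested. With GSK343 and control antibody, 0 of the 53 fell and 4 rose by limma's test, whereas 1.11% of all genes fell and 4.36% rose. None of the 4 rises passed without the 3 libraries highest in muscle markers, with the muscle covariate or in a fit of the compared groups alone, and 0 rose without control replicate 1, control replicate 5 or treated replicate 3. Without treated replicate 1, 5 fell. At an unadjusted p under 0.05, 20 of the 53 were lower and 7 higher, where 8.2% of all genes were lower and 10.7% higher (2714 genes in all, with 719.25 met by chance). Their median difference was -0.37, against -0.03 over all genes, and 39 of 53 were below 0, against 56.6% of all genes. With anti-CXCL10, 0 of the 53 passed for GSK343 (median -0.07).

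By role, 15 of 16 other carriers were below 0 with GSK343 and control antibody (median -0.41, 0 past the threshold). Vitamin D-binding protein, Gc, had 74.4 ± 7.76 and 43.9 ± 15.2 FPKM (-0.81 ± 0.27, adjusted p = 0.0920), and the copper-carrying ferroxidase Cp had 161 ± 9.05 and 109.8 ± 20.1 (-0.56 ± 0.19, adjusted p = 0.0964). The growth factor binding protein Igfbp4 had the smallest p of the list, with 813 ± 33.3 and 646 ± 79.7 FPKM (-0.34 ± 0.11, adjusted p = 0.0726). Sepp1 had 967 ± 199 and 625 ± 145 FPKM (adjusted p = 0.0982) and Igfbp1 2636 ± 469 and 1991 ± 391.6 (adjusted p = 0.144). Of 14 genes tested from the list of inhibitors, 2 rose by limma's test. They were Serpinf1 (0.74 ± 0.20, adjusted p = 0.0379), the antiangiogenic serpin PEDF, and Serping1 (1.14 ± 0.33, adjusted p = 0.0487), the C1 inhibitor. Ambp, the precursor of bikunin and thus a partner of Itih2, had 151 ± 115 and 47.9 ± 25.9 FPKM and did not pass (adjusted p = 0.118), nor did the broad protease inhibitor Pzp, with 18.1 ± 14.0 and 3.72 ± 2.35 (adjusted p = 0.146). Of 12 coagulation and fibrinolysis genes, F10, factor X, rose from 7.07 ± 4.60 to 20.6 ± 8.57 FPKM (1.47 ± 0.34, adjusted p = 0.0169). The fibrinogen chain Fga had 23.6 ± 22.3 and 3.29 ± 3.30 FPKM (adjusted p = 0.111), and vitronectin, Vtn, 37.7 ± 28.4 and 9.69 ± 5.40 (adjusted p = 0.0850); 7 of the 12 were lower at an unadjusted p under 0.05. Factor VII, F7, had 4.49 ± 2.40 and 12.1 ± 6.23 FPKM (adjusted p = 0.0502), the fibrinogen chain Fgb 109 ± 47.0 and 63.7 ± 13.8 (adjusted p = 0.130), and protein S, Pros1, 31.6 ± 1.69 and 33.5 ± 4.65 (adjusted p = 0.770). Of 11 complement genes, C1ra, the C1r protease, rose (0.55 ± 0.14, adjusted p = 0.0257). The C1s protease C1s1 had 171 ± 14.4 and 237 ± 52.3 FPKM (adjusted p = 0.0760), C4b 28.9 ± 10.5 and 43.5 ± 8.42 (adjusted p = 0.173), the complement inhibitor Cfi 51.7 ± 9.87 and 27.4 ± 6.16 (adjusted p = 0.0943), and the central component C3 252 ± 97.2 and 267 ± 114 (adjusted p = 0.961).

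**Figure D4:**
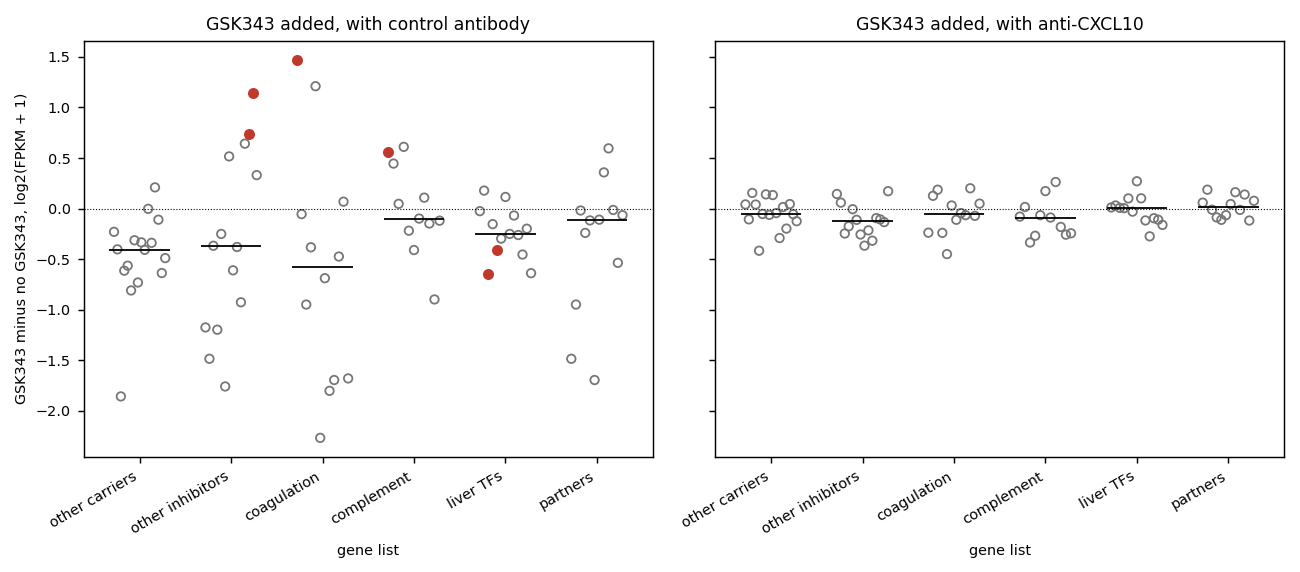
Difference with GSK343 on the log2(FPKM + 1) scale (vertical axis) for each tested gene of 6 lists, with control antibody (left) and anti-CXCL10 (right); filled red points passed limma's test and lines are list medians. With control antibody the medians lie between -0.58 and -0.10 and 6 genes passed (4 higher, 2 lower), and with anti-CXCL10 the medians lie between -0.12 and 0.02 and none passed.

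Of 13 liver transcription factors tested, 2 fell with GSK343 and control antibody, where 1.11% of all genes fell: Foxa1, from 4.20 ± 0.428 to 2.32 ± 0.157 FPKM (-0.65 ± 0.12, adjusted p = 0.00478), and Foxa3, from 27.0 ± 3.74 to 20.1 ± 3.06 (-0.41 ± 0.12, adjusted p = 0.0499). Neither passed without the 3 libraries (Foxa1 -0.64, adjusted p = 0.113; Foxa3 -0.24, adjusted p = 0.502) or with the covariate, and of the alternatives run Foxa1 passed in 27 of 29 and Foxa3 in 7 of 30. Foxa2 had 45.5 ± 3.84 and 41.3 ± 8.31 FPKM (adjusted p = 0.724), and Cebpb 74.2 ± 13.6 and 83.9 ± 13.2 (adjusted p = 0.671). The nuclear receptor Nr5a2 had 4.12 ± 0.33 and 2.80 ± 0.844 FPKM (adjusted p = 0.0851), and the homeobox factor Prox1 7.30 ± 1.04 and 4.35 ± 0.776 (adjusted p = 0.109). Of 12 partners of the 9 proteins, such as receptors and target proteases, 0 passed limma's test, and 1 was higher and 4 lower at an unadjusted p under 0.05 (10.7% and 8.2% of all genes). The higher one was Steap3, a ferrireductase that acts on transferrin iron, with 1.19 ± 0.688 and 2.28 ± 1.10 FPKM (adjusted p = 0.163). The liver transferrin receptor Tfr2 had 1.40 ± 0.663 and 0.618 ± 0.213 FPKM (adjusted p = 0.108), and plasminogen, Plg, the precursor of the protease that Serpinf2 inhibits, had 4.80 ± 4.65 and 0.497 ± 0.596 (adjusted p = 0.129). Rbp4, which travels on transthyretin, had 738 ± 76.1 and 682 ± 51.9 FPKM (adjusted p = 0.648), and the retinol-binding protein receptor Stra6 had 186 ± 33.5 and 183 ± 27.7 (adjusted p = 0.972).

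With GSK343 present, 5 of the 53 other plasma proteins were higher and 6 lower with anti-CXCL10 than with control antibody by limma's test, against 3.48% and 6.64% of all genes; those named next were chosen after their values were seen. The higher ones were Gc (0.90), the heme carrier Hpx (0.85), Igfals (0.37), Igfbp1 (0.64) and the selenium carrier Sepp1 (0.71), all from the list of carriers. The lower ones were Serpinf1 (-0.90), Serping1 (-1.21), Serpina3n (-1.34), F7 (-1.31), F10 (-1.16) and C1ra (-0.56). Without the 3 libraries highest in muscle markers, all in the group that anti-CXCL10 plus GSK343 was compared with, F7 alone of the 11 passed (adjusted p = 0.0390), and with the covariate 0 passed. The change of the GSK343 effect between the antibodies was tested as an interaction for these 53 genes, and 0 passed limma's test (smallest adjusted p = 0.131), where 9 of all 14385 genes passed.

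Genes outside the 9 that followed their mean standardised level closely over the 19 libraries included Acaa2 (r = 0.95), a thiolase of fatty acid oxidation, Apoa1 (0.94), Cyp1a2 (0.94) and Akr1c6 (0.94). These values, Pearson's r over libraries that share depth and scaling, are descriptions. With group means removed the closest were Cyp1a2 (0.93), Slc27a2 (0.92), Lect2 (0.92), Sord (0.92) and Akr1c6 (0.91). Acaa2 had 56.3 ± 12.01 FPKM with control antibody, 36.7 ± 6.81 with GSK343 added, 57.3 ± 11.9 with anti-CXCL10 and 55.1 ± 9.01 with both. Because Acaa2 was picked for following genes chosen on the control antibody contrast, a like pattern was built in, and nothing is read from it.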

How the data were processed

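Poly-A RNA of the tumors was sequenced on an Illumina instrument, per the design text of the series. The deposited table gives FPKM per gene, made by the authors; the unit was inferred from the values, since sums weighted by gene length varied by 0.790% between libraries (coefficient of variation) and plain sums by 4.06%. The tools listed in the submitters' processing notes are StringTie 1.3.3b, HISAT2 2.1.0, TopHat2 2.1.0, HTSeq 0.6.0 and Trimmomatic 0.33, beside builds mm10 and GRCm38; their roles and whether strand was used are not given in the sources used here. Depth is unknown, so no counting error can be given.

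Rows of the same gene ID (8 IDs, 21 of 14646 rows) were added. A model of 4 group means over 19 libraries was fitted with limma 3.58.1 (intensity trend, robust, with statmod 1.5.0 in R 4.3.3) to log2 of FPKM plus a pseudocount of 1, with Benjamini-Hochberg adjustment over 14385 genes and a threshold of 0.05. On this scale the differences of low genes are too small. The script was tested on simulated data. The members and all lists were chosen with earlier results of these data known. Genes to name were, per list, the 4 with the smallest p and the 2 most abundant, and the 5 most correlated with the members, of which 1 is not reported here; of the marker lists the text gives counts and summed levels and names few genes. Others are said to have been chosen after their values were seen. Alternatives were other pseudocounts, filters, scalings and moderation, a fit of the compared groups, the replicate number as a block, a muscle score covariate and leaving out each library. Leaving out the 3 libraries highest in muscle markers was chosen after seeing the data.

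Markers of keratinocytes, fibroblasts, endothelium and fat were also counted with limma. With GSK343 and control antibody 0 of 9, 0 of 10, 0 of 9 and 0 of 2 passed, in that order. At an unadjusted p under 0.05, 0, 2, 2 and 0 were higher and 0, 0, 0 and 1 lower. Of 8 keratin and hepatoma markers 0 passed (1 higher and 3 lower unadjusted). Over all genes 4.36% passed as higher and 1.11% as lower, and 10.7% and 8.2% did so unadjusted. All 10 fibroblast markers were above 0 (median 0.35) and all 9 keratinocyte markers below (median -0.48). Endothelial markers were 5 above and 4 below, and both fat markers tested, of 8 listed, were below.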

Additional observations from a re-analysis of the deposited data

Results flagged for a closer look

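In 8 of the 36 combinations of a gene and a group, 1 library stood apart from the others by more than Dixon's 95% limit for its group size. For values with a normal spread chance does so in about 1 of 20 groups. The gaps were taken on plain FPKM and not on the log2 scale of the fits. Plain FPKM need not have a normal spread, so that rate may not hold here. The genes vary together, so the 8 are not independent. All 8 were the highest of their group. With control antibody plus GSK343, replicate 1 stood apart for Serpina6 (40.6 FPKM) and Trf (1897 FPKM). With anti-CXCL10, replicate 5 stood apart for Serpind1 (72.9 FPKM), Serpinc1 (1.66 FPKM) and Alb (4401 FPKM). With anti-CXCL10 plus GSK343, replicate 5 stood apart for Serpina6 (130.2 FPKM), Serpind1 (60.0 FPKM) and Serpinf2 (71.1 FPKM). The muscle marker scores, mean log2(FPKM + 1), of these 3 libraries were 1.89, 0.774 and 1.21, against 0.597 to 6.68 over all libraries, and their part in the high levels was not tested.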

How the results depend on the processing

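With GSK343 and control antibody 787 genes passed in the reported fit, 233 in a fit of the compared groups alone, 6 with the muscle covariate and 14 without the 3 libraries highest in muscle markers, and 299 to 1382 with 1 library left out (299 without control replicate 1, 320 without control replicate 5, and 1382, 443 and 365 without treated replicates 1, 2 and 3). In that comparison the other plasma proteins past the threshold were 0 lower (1 in the fit of the compared groups and 1 with quantile normalization; 0 to 5 with 1 library left out, the 5 without treated replicate 1) and 4 higher (0 in the fit of the compared groups, 0 with the covariate and 0 without the 3 libraries; 0 to 6 with 1 library left out). For GSK343 with anti-CXCL10, 0 genes passed in each setting, except 1 without anti-CXCL10 replicate 1 (0 to 1). For anti-CXCL10 without GSK343, 2 genes passed, 1 in the fit of the compared groups, 0 without the 3 libraries and 0 to 2 with 1 left out. For anti-CXCL10 with GSK343, 1456 passed, 119 with the covariate, 478 without the 3 libraries and 843 to 1822 with 1 left out (843 and 910 when control antibody plus GSK343 lacked replicate 3 or 2, 843 and 964 when anti-CXCL10 plus GSK343 lacked replicate 5 or 1). With the replicate number as a block, 760, 0, 0 and 1491 genes passed in the 4 comparisons, in the order given. Same-numbered libraries correlated between -0.18 and 0.32 in their deviations from group means, and with anti-CXCL10 2 of 5 correlated best with their own number, so the numbers were not taken to pair the tumors. None of the 9 genes passed for GSK343 with anti-CXCL10 in any setting. Its sign turned with 1 library left out for Serpind1 (-0.19 to 0.20), Serpinf2 (-0.26 to 0.37) and Ahsg (-0.49 to 0.30), and for Serpinf2 also with the covariate (-0.16). The cause of these shifts was not tested. Foxa2, with control antibody, turned to 0.0231 with the covariate and 0.0242 without the 3 libraries. In that comparison Pros1 turned to -0.006 with the covariate and -0.0757 without the 3 libraries, and Stra6 to 0.0083 with median-ratio scaling; with 1 library left out Stra6 had -0.0773 to 0.1058 and C3 -0.1453 to 0.2821. Serpinc1 gave no value under the stricter filter.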
